A study of Mus musculus with 8 samples.

Results

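Carbonic anhydrases are the enzymes that interconvert carbon dioxide and water with bicarbonate and a proton. The genes described here are Car1, Car2, Car3, Car4, Car5b, Car9, Car12 and Car13, 8 of the 43346 genes in the count table, and all 8 symbols matched an identifier there. RNA was sequenced from bone of C57BL/6 mice aged 12 weeks, after enrichment for osteocytes, which are the cells that live inside the mineral. The groups were frontal bone (3 libraries, numbers 1, 2 and 4), parietal bone (2 libraries, numbers 2 and 4) and femur (3 libraries, numbers 1, 2 and 4). Frontal and parietal bone form the calvaria, the skull vault, and their 5 libraries were also set together against femur. No genotype, treatment or sex separates the groups in the labels. The labels do not say whether the libraries are separate animals or pools, so a p-value here speaks to the spread among libraries alone, part of which may be technical. Nor do they say whether same-numbered libraries of different bones share an animal, and the main fit did not pair them.

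Where each enzyme sits decides what it serves. Car1 and Car2 are cytosolic and abundant in red cells, where they speed the carriage of carbon dioxide, and Car2 also supplies the protons that osteoclasts secrete to dissolve bone mineral; people who lack CA2 have osteopetrosis. Car9 and Car12 are transmembrane enzymes whose active site faces outward, and both have been linked to hypoxia, Car9 as a direct target of the hypoxia-inducible factors HIF. Car3 and Car13 are cytosolic, Car4 is tethered to the outer membrane face by a lipid anchor, and Car5b works in mitochondria.

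The red-cell genes Car1 and Car2 were 13.9-fold and 5.23-fold higher in calvaria than in femur. The hypoxia-linked pair split, with Car9 2.77-fold higher and Car12 11.7-fold lower in calvaria. Car12 entered the test through its femur libraries alone, so its fold is given as a size and nothing is read from its call. Car3 and Car13 were 2.09-fold and 1.89-fold lower in calvaria, Car5b did not pass the test, and Car4 was close to absent from every library.

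Promoters of 4 of the 8 genes (Car4, Car5b, Car9 and Car12) were matched in a RefSeq table on GRCm38.p6, and those of the hypoxia-linked pair are shown because these genes differed in opposite directions. Each sequence is the 250 bases before the RefSeq start, on the plus strand, 5′ to 3′, at chr4:43506776-43507025 for Car9 and chr9:66713436-66713685 for Car12. Capitals mark the core of the hypoxia response element, which is ACGTG or GCGTG and was searched on both strands.
Car9: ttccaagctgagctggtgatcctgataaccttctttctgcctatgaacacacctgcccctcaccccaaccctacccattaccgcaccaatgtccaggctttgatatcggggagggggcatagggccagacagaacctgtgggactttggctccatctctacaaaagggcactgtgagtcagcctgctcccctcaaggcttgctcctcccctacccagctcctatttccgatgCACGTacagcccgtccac
Car12: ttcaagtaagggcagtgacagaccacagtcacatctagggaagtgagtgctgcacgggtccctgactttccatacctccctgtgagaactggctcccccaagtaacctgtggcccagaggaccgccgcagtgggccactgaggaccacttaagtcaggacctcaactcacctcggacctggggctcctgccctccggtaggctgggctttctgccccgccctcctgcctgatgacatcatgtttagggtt
The Car9 window holds 1 core, ACGTG on the minus strand and therefore written CACGT here, 18 bases before the start. The GENCODE M21 annotation begins Car9 at 43506966 on chromosome 4, inside this window and upstream of that core. The Car12 window holds no core. Of 32851 mouse promoters in the table, 38.6% hold at least 1 core in a window of this length, and 16.6% hold the ACGTG form. The GATA core of erythroid promoters (AGATAA or TGATAA) occurs once in the Car9 window, as TGATAA 228 bases before the start, and in 16.6% of all promoters. The core bound by KLF factors, CCACACCC, is in neither window and in 3.2% of all promoters. The Car5b promoter holds 5 cores of the GCGTG form and the Car4 promoter none. These are matches of letters, with no measurement of binding.

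Depth ran from 6259229 to 13461622 gene counts per library, and spike-in controls, at 0.0286 to 0.1759% of gene and spike-in counts together, were set aside. The 8 carbonic anhydrases together took 0.372 to 0.502% of gene counts in the calvarial libraries and 0.0782 to 0.109% in the femur libraries. The labelled cell type was checked against osteocyte markers, and none of the 16 was at 0 in all libraries. The list took 0.198 to 0.286% of gene counts in calvarial libraries and 2.56 to 4.91% in femur libraries, and 12 of the 16 genes were called lower in calvaria and 2 higher, so the calvarial fractions held a smaller share of RNA from these markers. Dmp1, the matrix protein that marks osteocytes, had a log2 fold change of -6.04 in calvaria against femur. In bulk samples such as these, fewer cells of a type and less RNA per cell cannot be told apart. Other marker lists also moved with the bones: granulocyte genes took 7.9 ± 0.808% of gene counts in calvaria (SD, n = 5) and 3.11 ± 1.39% in femur (n = 3), endothelial genes took 0.0381 ± 0.00586% in calvaria and 0.0766 ± 0.00783% in femur, and chondrocyte genes took 0.00875 ± 0.00506% in calvaria and 0.129 ± 0.0365% in femur. Each of these list shares had no overlap between calvaria and femur (exact two-sided permutation p = 0.0179 over 56 splits, the smallest that 5 against 3 libraries allow, and 0.023 adjusted over the 9 shares tested). Without any 1 of the femur libraries the adjusted p by this test was 0.0612, and 5 against 2 libraries cannot go below an unadjusted 0.0476.

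**Figure D1:**
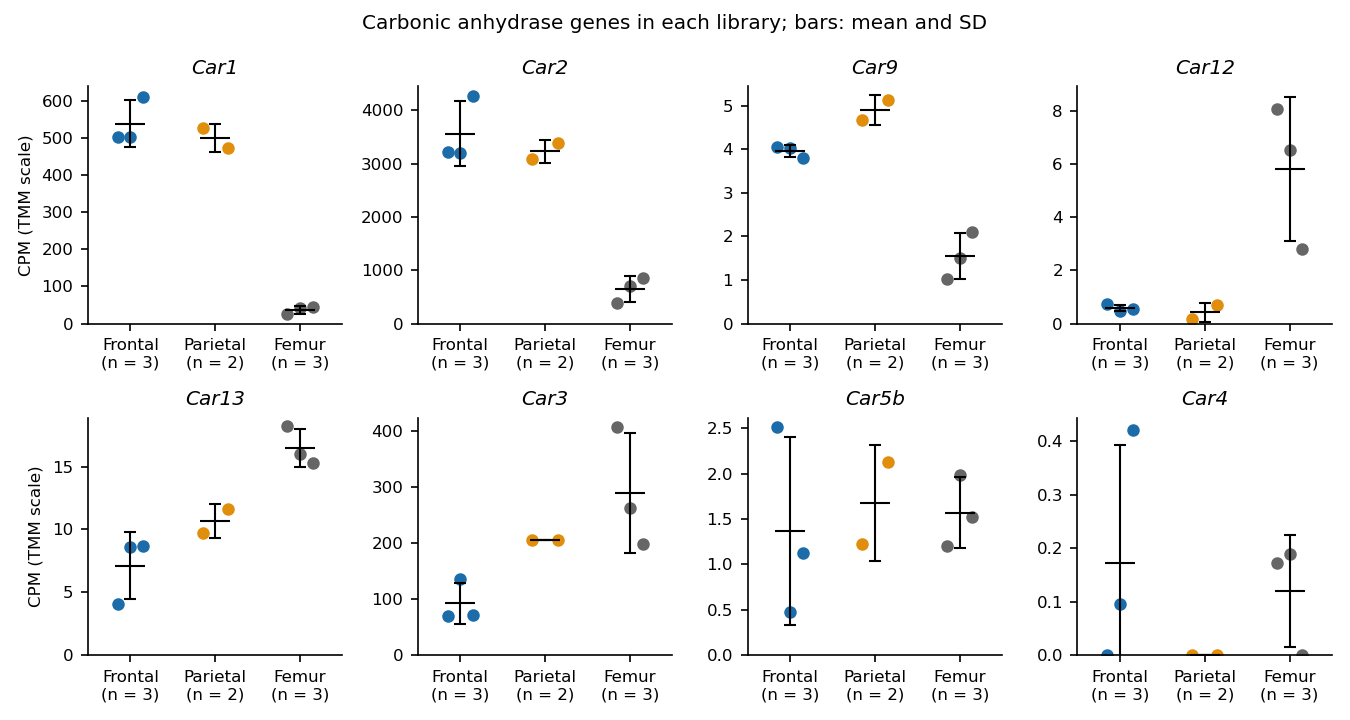
Level of each carbonic anhydrase gene in each library, as CPM (the count relative to the TMM-scaled library total), by bone; points are libraries and bars are the mean and SD (n = 3 frontal, 2 parietal and 3 femur). For Car1, Car2 and Car9 the lowest calvarial point is above the highest femur point, and for Car12 and Car13 the highest calvarial point is below the lowest femur point.

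Differences were tested with edgeR's quasi-likelihood test on the raw counts of all 8 libraries, over the 15511 genes that passed a filter on low counts, with Benjamini-Hochberg adjustment over all of them and a call at an adjusted p under 0.05. In calvaria against femur, 29.6% of all genes tested were called higher and 31.4% lower, so calls in either direction were common. Of the 8 carbonic anhydrases, 7 passed the filter; 3 of them were called higher in calvaria (Car1, Car2 and Car9), 3 lower (Car12, Car3 and Car13) and 1 (Car5b) neither way. Car12 passed the filter through its femur libraries alone: all 3 stood above the cutoff of 1.09 CPM and no calvarial library did. It was thus tested only through the bone where it is high, which favours a difference. Its call is counted here, but nothing is read from it. The median log2 fold change was -0.10 over the 7 genes and 0.012 over all genes tested.

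Car1, at chromosome 3, 14766216 to 14808368 on the minus strand (GRCm38), stood at 502, 502 and 611 CPM in frontal libraries 1, 2 and 4, at 526 and 474 CPM in parietal libraries 2 and 4, and at 25.3, 41.7 and 44.2 CPM in femur libraries 1, 2 and 4. The lowest calvarial library was thus over 10 times the highest femur library, and the frontal and parietal ranges overlapped. The log2 fold change was 3.80 ± 0.20 (SE, edgeR adjusted p = 6.76e-08) in calvaria against femur. It was 3.85 in frontal bone and 3.74 in parietal bone, each against the same femur libraries. With a trend on gene length and GC content removed, an alternative chosen after the data were seen, it was 3.17 for calvaria against femur and 2.95 for parietal bone, and both remained called. Gm16399 lies across Car1 on the same strand but shares 0 exon bases with it.

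Car2, at chromosome 3, 14886273 to 14900770 on the plus strand, had the highest level of the 8 genes per kilobase of exon in every library, although in femur library 1 Car3 stood above it when the longest transcript was taken as the length. It reached 3220, 3200 and 4260 CPM in frontal libraries 1, 2 and 4, 3080 and 3380 CPM in parietal libraries 2 and 4, and 381, 708 and 855 CPM in femur libraries 1, 2 and 4. Calvarial and femur libraries were well apart, and frontal and parietal libraries were not. Its log2 fold change was 2.39 ± 0.25 in calvaria against femur (edgeR adjusted p = 8.09e-06), with 2.46 in frontal and 2.32 in parietal bone. Car2 took 80.5 to 85.9% of the counts of the 8 genes in calvarial libraries and 45.3 to 76.4% in femur libraries, and Car1 took 11.6 to 13.7% in calvarial libraries and 3.0 to 4.02% in femur libraries. Car3 took 1.44 to 5.38% in calvarial libraries and 17.7 to 48.3% in femur libraries, and in femur library 1 it had more counts than Car2.

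Erythroid RNA moved with both genes. The 23 erythroid genes found in the count table took 7.19 to 11.4% of gene counts in calvarial libraries and 1.26 to 3.04% in femur libraries, a mean of 8.87 ± 1.93% in calvaria (SD, n = 5) and 2.23 ± 0.902% in femur (n = 3, exact two-sided permutation p = 0.0179, adjusted p = 0.023), and none of the 23 was at 0 in all libraries. Of them, 22 were called higher in calvaria, with a median log2 fold change of 1.57. They included Hemgn, which encodes a nuclear protein of blood cell progenitors, at 2.35, Cldn13 at 2.47, the erythroid transcription factor Klf1 at 2.05 and the adult beta globin Hbb-bs at 1.95. All 23 had a smaller log2 fold change than Car1, and only Cldn13 exceeded Car2. Of 5 gas channel genes, 3 passed the filter and all 3 were higher in calvaria: the ammonia channel subunit of the red-cell Rh complex Rhag at 1.98, its partner Rhd at 2.13 and the water channel Aqp1 at 1.33; Rhag and Rhd stand in the erythroid list too.

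Car1 was therefore also counted against the erythroid genes of its own library, which does not depend on how libraries are scaled. For every 100 counts on the erythroid list, Car1 had 0.502, 0.726 and 0.542 counts in frontal libraries 1, 2 and 4, 0.71 and 0.615 in parietal libraries 2 and 4, and 0.187, 0.167 and 0.142 in femur libraries 1, 2 and 4. The ranges of calvaria and femur did not overlap. The log2 ratio was 1.90 higher in calvaria, a 3.73-fold difference (exact two-sided permutation p = 0.0179, adjusted p = 0.0204 over the 8 ratios computed). Without the globin genes in the list the difference was 2.44. Without femur library 1 it was 1.99 (exact permutation adjusted p = 0.0544), and every other ratio to a list also missed the threshold at this smaller n. Car1 thus differed more than the erythroid list taken as a sum.

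The same ratio for Car2 differed less. It was 3.23, 4.63 and 3.78 counts per 100 erythroid counts in frontal libraries 1, 2 and 4, 4.16 and 4.38 in parietal libraries 2 and 4, and 2.82, 2.82 and 2.75 in femur libraries 1, 2 and 4. The libraries of calvaria and femur did not overlap, and the log2 difference of 0.52 was past the threshold (exact two-sided permutation p = 0.0357, adjusted p = 0.0357). It no longer passed when either parietal library, or number 2 or 4 of the frontal libraries, was left out (adjusted p = 0.0571 by the exact permutation test, differences 0.47 to 0.54), or femur library 1 (0.52, adjusted p = 0.0544). Without the globins it was 1.06. As a ratio of counts not corrected for length, a comparison added after the values were seen, Car1 had 15.6, 15.7, 14.3, 17.1 and 14 counts per 100 of Car2 in the calvarial libraries and 6.63, 5.89 and 5.17 in the femur libraries, a log2 difference of 1.38, given without a test for that reason.

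**Figure D2:**
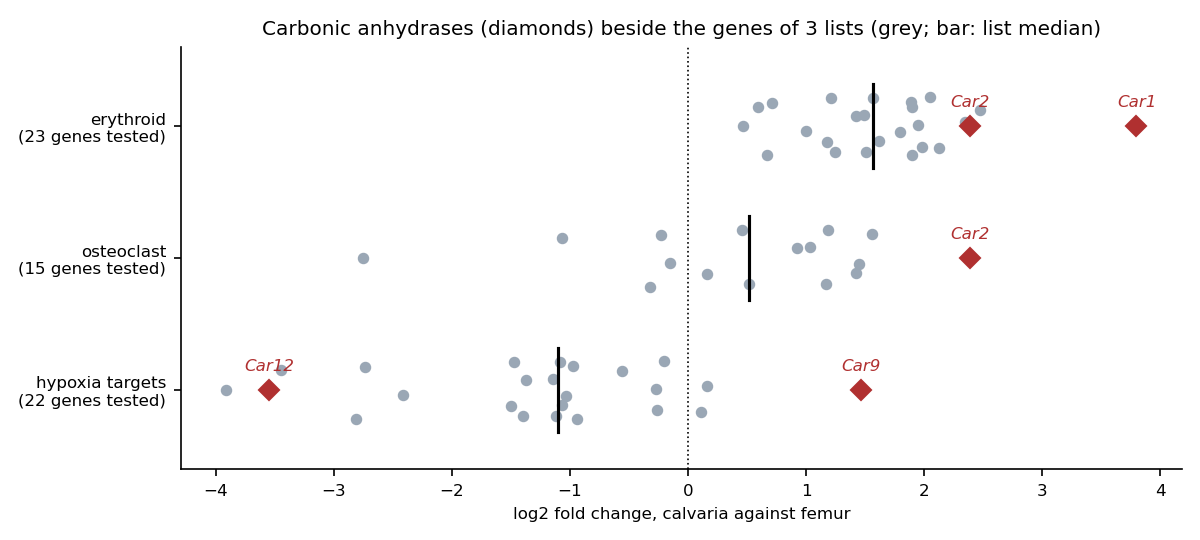
Log2 fold change of calvaria against femur for the genes of 3 lists (grey points, with the list median as a bar) and for the carbonic anhydrases set beside them (red diamonds). Car1 at 3.80 lies beyond all 23 erythroid genes, Car2 at 2.39 lies beyond the osteoclast genes, and Car9 at 1.47 and Car12 at -3.55 lie on opposite sides of the hypoxia target median of -1.10.

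Car2 is also the osteoclast enzyme, and osteoclast genes did not move as a block. Of 15 osteoclast genes tested, 6 were called higher in calvaria, 2 lower and 7 neither way, with a median log2 fold change of 0.52. The shares over all genes tested were 29.6% higher and 31.4% lower. The collagen-degrading protease gene Ctsk was higher by 1.17, the proton pump subunit gene Atp6v0d2 by 1.45 and Ostm1, which encodes the partner of the chloride transporter ClC-7, by 1.03, while Nfatc1, the transcription factor of osteoclast differentiation, had a log2 fold change of -2.75. Together the list took 0.261 to 0.448% of gene counts in calvarial libraries and 0.181 to 0.318% in femur libraries, which overlapped (means of 0.359% in calvaria and 0.242% in femur, exact two-sided permutation p = 0.0893, adjusted p = 0.10); none of its genes was at 0 in all libraries. Car2 exceeded every osteoclast gene in log2 fold change.

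Per 100 counts on the osteoclast list, Car2 had 129, 91.9 and 144 counts in frontal libraries 1, 2 and 4, 72.8 and 76.2 in parietal libraries 2 and 4, and 19.5, 30.1 and 26.2 in femur libraries 1, 2 and 4. The log2 difference was 1.99 (exact two-sided permutation p = 0.0179, adjusted p = 0.0204). Car2 by itself was already higher in every calvarial library than in any femur library, so the ratio also carries that difference. All 3 frontal libraries were above both parietal libraries in this ratio, a comparison that 3 against 2 libraries cannot carry past a p of 0.1 and that was not tested. In the fit over all genes, Ctsk and Atp6v0d2 were lower in frontal than in parietal bone. Their log2 fold changes were -0.97 and -1.07 (edgeR adjusted p = 0.0403 and 0.0379), while that of Car2 was 0.14. Ctsk and Atp6v0d2 were the only 2 of the 15 osteoclast genes called there. The other 13 went both ways, from -0.83 for Dcstamp to 0.63 for Siglec15. With a replicate block no gene at all was called between the skull bones. How much of the Car2 RNA came from red cells, osteoclasts or other cells was not tested.

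**Figure D3:**
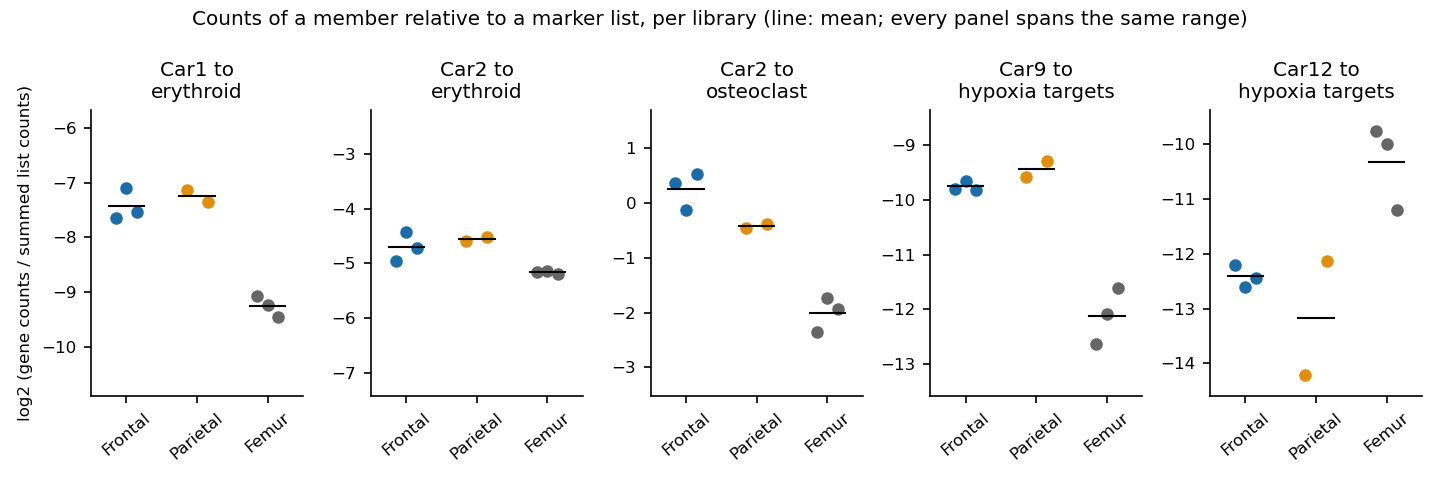
Log2 ratio of the counts of a carbonic anhydrase to the summed counts of a marker list, in each library by bone; lines are means, and every panel spans the same range. Relative to their lists, Car1, Car2 (in both panels) and Car9 have every calvarial library above the femur libraries, with mean differences of 1.90, 0.52, 1.99 and 2.48 from left to right; for Car12 the difference is -2.39.

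Genes of acid transport that work beside Car2 were mixed. Of 12 listed genes for proton and chloride transport in acid secretion, 11 were tested. In calvaria 4 were higher, 2 lower and 5 neither way, with a median of 0.05. Over all genes tested, 29.6% were called higher in calvaria and 31.4% lower. Besides Ostm1, Snx10, a sorting nexin that osteoclasts need for resorption, was higher by 1.19, whereas Plekhm1, a lysosome transport factor, stood at -1.70. Of 14 bicarbonate transporters, 8 were tested, with 1 higher, 5 lower and 2 neither way and a median of -1.44. Some of the 5 lower ones averaged below the filter's cutoff of 1.09 CPM in calvaria, among them Slc4a4 at 1.03 CPM. The red-cell anion exchanger Slc4a1 was the higher one at 0.71, below the median of the erythroid list, which also holds it. In parietal bone against femur Slc4a1 stood at 0.32 and was not called (edgeR adjusted p = 0.33). The sodium-bicarbonate cotransporters Slc4a4 and Slc4a7 had log2 fold changes of -3.90 and -1.92, and Slc4a2, the anion exchanger that exports bicarbonate from osteoclasts, of -1.57.

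Of the hypoxia-linked pair, Car9 lies on chromosome 4, 43506966 to 43513729, plus strand. Its levels were 4.06, 4.02 and 3.79 CPM in frontal libraries 1, 2 and 4, 4.66 and 5.14 CPM in parietal libraries 2 and 4, and 1.03, 1.51 and 2.10 CPM in femur libraries 1, 2 and 4. They rest on 27 to 61 counts in a calvarial library and 6 to 18 in a femur library. The calvarial libraries were all above the femur libraries, with a log2 fold change of 1.47 ± 0.28 (edgeR adjusted p = 0.000809), and of 1.32 and 1.62 in frontal and parietal bone; the frontal libraries were in turn all below the parietal ones. The antisense gene Gm12454 shares 214 exon bases with Car9. Without a stated strand setting, reads from the pair cannot be told apart there. Over all libraries Gm12454 had 119 counts and Car9 had 257. Gm12454 itself, at 1.03 on the log2 scale, moved in the same direction as Car9 and missed the threshold (edgeR adjusted p = 0.0593).

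Car12 lies on chromosome 9, 66713686 to 66766845, plus strand. It had 6, 5 and 4 counts in frontal libraries 1, 2 and 4, 2 and 7 in parietal libraries 2 and 4, and 47, 69 and 24 in femur libraries 1, 2 and 4. As CPM these are 0.717, 0.478 and 0.562 in frontal bone, 0.153 and 0.679 in parietal bone, and 8.08, 6.51 and 2.80 in femur. Every calvarial library was below every femur library, and femur library 4 was the nearest to them. The log2 fold change was -3.55 ± 0.46 in calvaria, -3.28 in frontal bone and -3.82 in parietal bone. As Car12 passed the filter through femur alone, these are given as sizes and nothing is read from its calls. The size of the difference rests on few reads: without parietal library 4 it was -4.21 in calvaria and -5.15 in parietal bone, and without parietal library 2 -3.08 in parietal bone.

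Other hypoxia targets were mostly lower in calvaria. Of 22 genes on that list, 17 were called lower in calvaria and the other 5 were not called. The median over the 22 was -1.10 on the log2 scale. The angiogenic factor Vegfa stood at -3.91, the vasodilator peptide gene Adm at -3.45, Ndrg1 at -2.74 and the collagen prolyl hydroxylase subunit P4ha2 at -2.81. The list took 0.355 ± 0.0185% of gene counts in calvaria (SD, n = 5) and 0.656 ± 0.00854% in femur (n = 3, exact two-sided permutation p = 0.0179, adjusted p = 0.023). The log2 fold change of Car9 exceeded those of all 22, of which the highest was 0.16 for Pdk1, not called.

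Relative to these targets, Car9 had 0.113, 0.124 and 0.11 counts per 100 in frontal libraries 1, 2 and 4, 0.13 and 0.158 in parietal libraries 2 and 4, and 0.0157, 0.0231 and 0.0319 in femur libraries 1, 2 and 4. The log2 difference was 2.48 (exact two-sided permutation p = 0.0179, adjusted p = 0.0204). Car9 was higher and this list lower in every calvarial library, so the separation follows from both and the p-value adds nothing to them. Car12 had 0.0053 to 0.0222 counts per 100 in calvarial libraries and 0.0423 to 0.115 in femur libraries, a log2 difference of -2.39 with the same p-values. As Car12 passed the filter through femur alone, this difference is given as a size and nothing is read from its p-values. Not corrected for length, the counts of Car9 were 5.67, 8.4, 6.75, 30.5 and 7.57 times those of Car12 in the calvarial libraries, in the order frontal 1, 2 and 4 and parietal 2 and 4, and 0.128, 0.232 and 0.75 times in femur libraries 1, 2 and 4. The log2 difference was 4.87, given without a test because the pair was chosen after both genes' values were seen. Hypoxia was not itself measured, and osteocyte, endothelial and erythroid markers differed between the same libraries; their part in the split was not tested.

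**Figure D4:**
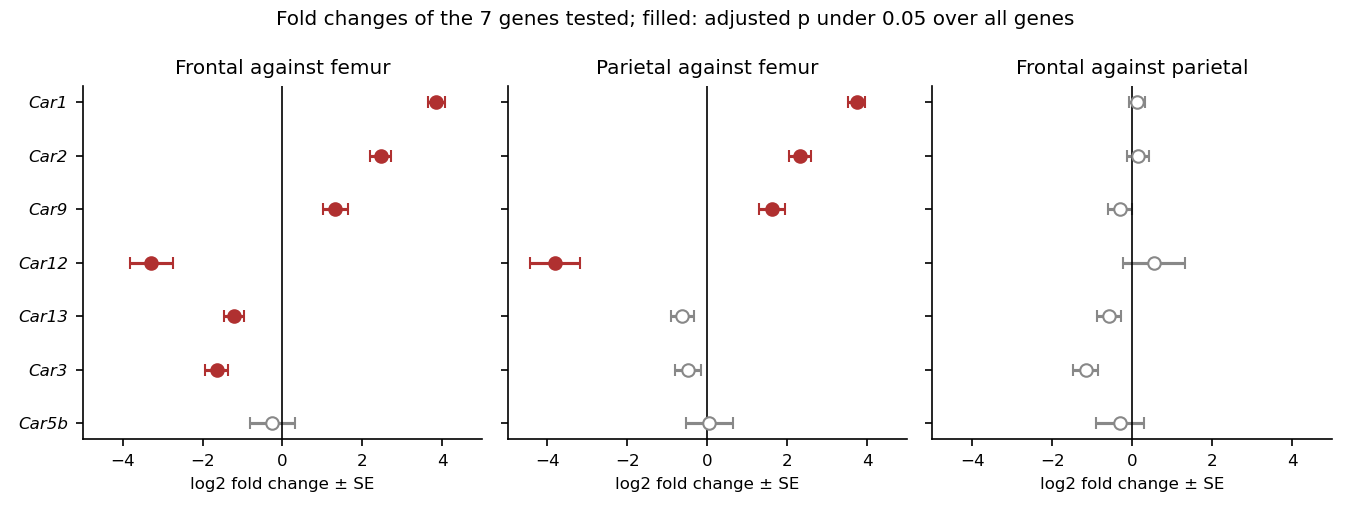
Log2 fold change with its SE for the 7 carbonic anhydrases tested, in frontal bone against femur, parietal bone against femur and frontal against parietal bone; filled points have an edgeR adjusted p under 0.05 over all genes. The first 2 panels share the 3 femur libraries; Car3 and Car13 are called in frontal bone and not in parietal bone, and no gene is called between the skull bones.

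Car3, at chromosome 3, 14863512 to 14872523 on the plus strand, is a carbonic anhydrase of low activity that is abundant in slow skeletal muscle, fat and liver. It stood at 70.6, 135 and 71.5 CPM in frontal libraries 1, 2 and 4, at 206 CPM in both parietal libraries, and at 407, 263 and 198 CPM in femur libraries 1, 2 and 4. All frontal libraries were below all femur libraries, while the parietal libraries lay inside the femur range. The log2 fold change was -1.06 ± 0.25 in calvaria against femur (edgeR adjusted p = 0.00362). It was -1.64 ± 0.29 in frontal bone (edgeR adjusted p = 0.000691) and -0.49 ± 0.32 in parietal bone (edgeR adjusted p = 0.219). The direct comparison of frontal with parietal bone gave -1.16 ± 0.31, which just missed the threshold (edgeR adjusted p = 0.0509, 95% interval -1.85 to -0.46). It passed in 5 of 14 alternatives: without the filter on low counts (-1.11, adjusted p = 0.000354), in DESeq2 (-1.14, adjusted p = 0.00561), and without frontal library 2 (-1.54, 0.00762), femur library 1 (-1.12, 0.0358) or femur library 4 (-1.15, 0.0422). It did not pass in the other 9, among them the replicate block (-1.27, adjusted p = 0.10), the length and GC trend removed (-1.02, 0.157), and the fits that left out frontal 1 (-0.99, 0.174), frontal 4 (-0.96, 0.117), parietal 2 (-1.12, 0.195) and parietal 4 (-1.11, 0.262).

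Fat and muscle markers were set beside Car3, and their part in its difference was not tested. Of 12 adipocyte genes, 8 were tested, with 3 higher in calvaria, 2 lower and 3 neither way (median 0.13). Among all genes tested, 29.6% were called higher and 31.4% lower. The hormone gene Adipoq was higher by 0.87 and the lipase gene Lpl by 0.76, while the complement factor gene Cfd and the lipid droplet gene Cidec were at -3.70 and -3.90. Cidec averaged 0.11 CPM in calvaria and 1.64 CPM in femur, so it passed the filter through femur alone. Its call is counted among the 2 lower, but nothing is read from it. The list took 0.0541 ± 0.0117% of gene counts in calvaria (SD, n = 5) and 0.0417 ± 0.00905% in femur (n = 3), which overlapped (exact two-sided permutation p = 0.196). Of 15 skeletal muscle genes, 4 were tested; the contractile filament genes Mylpf, Tnni2 and Tnnt1 were higher in calvaria, at 3.06, 1.76 and 1.13, and Acta1 at -0.13 did not pass, with a median of 1.45. That list took at most 0.00369% of gene counts in any library, and Tnnc2 was at 0 in all. Per 100 adipocyte counts, Car3 had 16.6 to 32.2 counts in calvarial libraries and 53.4 to 72.5 in femur libraries, a log2 difference of -1.43 (exact two-sided permutation p = 0.0179, adjusted p = 0.0204). Against the muscle list the log2 difference was -2.77 with the same p-values. That list itself had a higher share in every calvarial library than in any femur library, so the ratio also carries the list's own difference. Between the skull bones, where Car3 was at -1.16, the adipocyte list took 0.0423 to 0.0519% of gene counts in frontal libraries and 0.0648 to 0.0677% in parietal libraries, without overlap; this was not tested for want of libraries. The fatty acid carrier gene Fabp4 was lower in frontal bone there (-0.96, edgeR adjusted p = 0.0345), the 1 called of the 8 tested. With a replicate block no gene was called in that comparison.

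Car13, at chromosome 3, 14641727 to 14663002 on the plus strand, is a cytosolic enzyme that lies in one cluster with Car1, Car2 and Car3. Its levels were 4.06, 8.60 and 8.71 CPM in frontal libraries 1, 2 and 4, 9.71 and 11.6 CPM in parietal libraries 2 and 4, and 18.2, 16.0 and 15.3 CPM in femur libraries 1, 2 and 4. The 3 bones did not overlap, with femur highest. The log2 fold change was -0.92 ± 0.23 in calvaria against femur (edgeR adjusted p = 0.00431), -1.21 ± 0.26 in frontal bone (edgeR adjusted p = 0.00228) and -0.63 ± 0.29 in parietal bone (edgeR adjusted p = 0.0809). Parietal bone passed without frontal library 1 (-0.63, adjusted p = 0.0229) and after removal of the trend on length and GC content (-1.36, adjusted p = 0.00107). Frontal against parietal bone gave -0.58 (edgeR adjusted p = 0.212, 95% interval -1.21 to 0.06). Relative to the erythroid list, Car13 had a log2 difference of -2.98 (exact two-sided permutation p = 0.0179, adjusted p = 0.0204). Car13 was lower and that list higher in every calvarial library, so the separation follows from both and this p-value adds nothing to them. The 4 genes of the chromosome 3 cluster thus divided evenly, Car1 and Car2 being higher and Car3 and Car13 lower in calvaria.

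Car5b, at chromosome X, 163976822 to 164027997 on the minus strand, encodes the mitochondrial enzyme of the set. It had 2.51, 0.478 and 1.12 CPM in frontal libraries 1, 2 and 4, 1.22 and 2.13 CPM in parietal libraries 2 and 4, and 1.20, 1.98 and 1.52 CPM in femur libraries 1, 2 and 4. The bones overlapped throughout. The log2 fold change was -0.10 ± 0.49 in calvaria against femur (edgeR adjusted p = 0.873), with a 95% interval of -1.17 to 0.97. At 5 to 22 counts per library, a level 2-fold lower in calvaria lies inside that interval.

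Car4, at chromosome 11, 84957786 to 84966044 on the plus strand, encodes the enzyme of capillary endothelium in lung and muscle. It had 0, 1 and 3 counts in frontal libraries 1, 2 and 4, 0 in both parietal libraries, and 1, 2 and 0 in femur libraries 1, 2 and 4. At these counts no difference was detectable, and it was not tested. The 0 counts in parietal bone allow up to 0.127 CPM (3 counts over the 23652117 gene counts of the bone, counting error only). Endothelial genes themselves were measured: all 15 were tested and 13 were lower in calvaria, with a median of -1.35.

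Between the skull bones, 3.91% of all genes tested were called higher in frontal than in parietal bone and 3.29% lower. None of the 7 carbonic anhydrases tested was called by edgeR; 1 of them (Car3) had an unadjusted p under 0.05, and DESeq2 called the same 1. The 95% intervals of the log2 difference were -0.34 to 0.55 for Car1, -0.47 to 0.75 for Car2, -0.96 to 0.35 for Car9 and -1.14 to 2.23 for Car12, so a 2-fold difference in Car12 in either direction lies inside. Against the same femur libraries, frontal bone had 3 of the 7 higher and 3 lower, where 27.2% and 28.5% of all genes were called, and parietal bone had 3 higher and 1 lower (Car12), where 27.1% and 28.6% were. The lower calls in both bones include Car12, which passed the filter through femur alone.

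Levels were compared between genes only per kilobase of exon. In frontal bone the mean CPM per kilobase was 1470 for Car2, 431 for Car1, 32.2 for Car3, 3.10 for Car13, 1.72 for Car9 and 0.216 for Car5b, and neighbours in this order did not overlap; Car4 at 0.0876 and Car12 at 0.0771 were not separable from each other, nor Car4 from Car5b. Parietal bone had the same first 6 genes in the same order, at 1330, 401, 72.0, 4.64, 2.13 and 0.264, followed by Car12 at 0.0548. In femur the order was Car2 at 268, Car3 at 101, Car1 at 29.7, Car13 at 7.19, Car12 at 0.763, Car9 at 0.672 and Car5b at 0.247. Car3 thus stood above Car1 in femur and below it in both skull bones, and Car12 and Car9 overlapped in femur.

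**Figure D5:**
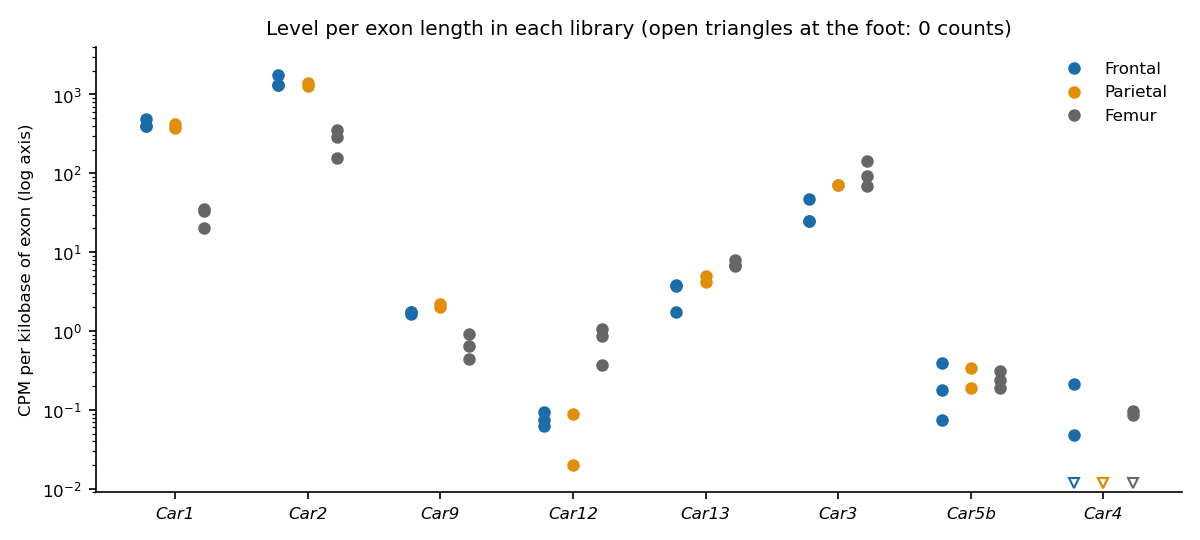
Level of each gene per kilobase of exon (CPM per kilobase, log axis) in each frontal, parietal and femur library; open triangles at the foot mark libraries with 0 counts. With all exons as the length, Car2 leads in every library, at a mean of 1470 in frontal, 1330 in parietal and 268 in femur bone, and Car3 lies above Car1 in femur alone.

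Of the other 8 carbonic anhydrase genes in the table, Car5a, Car6, Car10, Car11, Car14 and Car15 did not pass the filter, with 3 to 46 counts over all libraries. Car7, a cytosolic enzyme known from brain, stood at -0.97 on the log2 scale and was not called (edgeR adjusted p = 0.198). Car8, a relative without catalytic activity, had 4 to 13 counts in calvarial libraries and 19 to 21 in femur libraries, and a log2 fold change of -1.67 ± 0.40. Its 3 femur libraries and 1 frontal library stood above the filter's cutoff, so like Car12 it was tested through the bone where it is high, and nothing is read from its call.

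The genes whose log2(CPM + 1) followed each carbonic anhydrase most closely over the 8 libraries were taken from the 8929 candidates that averaged 10 CPM or more. The libraries form a calvarial and a femur cluster, so any gene with a steady difference between them scores high, and the correlations are a description only. For Car2 they were Zwilch, Pbk, Prdx2, Blvrb and Urod (Pearson r of 0.9985 to 0.999), and for Car1 Dync1i2, Mns1, Rad51ap1, Rnaseh2b and Isoc1 (0.9969 to 0.9987). For Car9 they were Ndufv3, Fam111a, Mrpl36, Slc35a5 and Siva1 (0.9957 to 0.9978), and for Car12 Inhba, Itpr1, Arsg, Fbxo28 and Arid4b (0.9895 to 0.9948). For Car3 they were Ssr3, Rcn1, Ptprd, Zfp644 and Kitl (0.9888 to 0.9965), and for Car13 Rnf146, Gosr1, Vhl, Zfp719 and Acvr2a (0.974 to 0.9858). Car5b, which did not separate the bones, had no comparably close gene: Ccl3, Mindy3, Fam133b, Wdr75 and Wdyhv1 reached 0.7095 to 0.7959.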

How the data were processed

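Raw read counts per gene, deposited by the authors as whole numbers, were the only values used (43438 rows: 43346 genes and 92 spike-ins). A filtered copy (23065 rows) held the same counts, and a deposited table of scaled CPM was not used. The submitters' processing notes name the builds mm10 and GRCm38.p3 and the tools STAR 2.5.2a, limma, edgeR and DESeq2. How reads were counted, with which strand setting and annotation, is not given in the sources used here. Libraries were 37 bp paired-end Nextera XT libraries of total RNA, per the labels' protocols, and are named by bone and the number in their description.

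Symbols (42462 genes) came from the reference tables; positions and exon lengths are GENCODE M21, GRCm38. edgeR 4.0.16 (R 4.3.3) was run with filterByExpr, TMM scaling (trimmed mean of M values) and a robust quasi-likelihood fit with the 3 bones as groups over all 8 libraries (5 residual degrees of freedom), because 2 parietal libraries cannot give a spread of their own. The common biological coefficient of variation was 18.6%. Ratios to a list are log2 of (counts + 0.5) over (summed list counts + 0.5). Single values per library were compared by exact two-sided permutation over 56 splits and adjusted by Benjamini-Hochberg; the Car4 to endothelial ratio was not computed, Car4 having under 10 counts. The edgeR step was tested on simulated counts, and the permutation and adjustment steps on small fixed examples. Libraries of the same bone differed by more than sampling noise, with a chi-square of at least 7.75 per degree of freedom.

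The 8 genes and the 14 lists were chosen with earlier results of these data known. Named from each list are up to 4 genes with the smallest p in calvaria against femur, and for each carbonic anhydrase the 5 genes with the highest Pearson correlation; Pdk1, Gm12454 and the frontal against parietal values of Ctsk, Atp6v0d2 and Fabp4 were added after values were seen. Of the erythroid list, 23 of 24 genes were found. 1 listed gene is not reported here by name. Alternatives were DESeq2 1.42.0, other scaling, no filter, a replicate block, each library left out, other list compositions and, added after the data were seen, removal of a length and GC trend.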

Additional observations from a re-analysis of the deposited data

How the results depend on the processing

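Over 14 alternatives per comparison, Car1, Car2 and Car9 kept their direction and their calls in calvaria, frontal and parietal bone against femur. Car3 and Car13 did so in calvaria and frontal bone. Car12 kept its direction against femur, and nothing is read from its calls. Deviations of same-numbered libraries from their bone means had correlations of -0.103 to 0.145. With 2 or 3 libraries per bone, and parietal deviations that mirror each other, this cannot tell whether same-numbered libraries share an animal. With a replicate block no call on a carbonic anhydrase changed. Between frontal and parietal bone, 0 genes were then called (3504 at an unadjusted p under 0.05) in place of 1118. That count was 1904 with no filter, 2056 in DESeq2, 28 with the length and GC trend removed, and 0 to 1963 with 1 library left out. Car5b, never called, changed sign. With 1 library left out it ran from -0.50 to 0.13 in calvaria, -1.05 to 0.20 in frontal bone and -0.43 to 0.38 in parietal bone, each against femur, and from -1.10 to 0.18 in frontal against parietal bone. It turned in calvaria without frontal 2, parietal 2 or femur 2 (0.13, 0.07 and 0.11), in frontal bone without frontal 2 (0.20), in parietal bone without parietal 4 or femur 1 (-0.43 and -0.13) or with the trend removed (-0.06), and between the skull bones without frontal 2 or parietal 4 (0.15 and 0.18). Car12 in frontal against parietal bone ran from -0.19 without parietal 2 to 1.88 without parietal 4. The causes were not tested.

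With 1 library left out, the log2 ratio differences ran from 1.79 to 1.99 (Car1 to erythroid), 0.47 to 0.60 (Car2 to erythroid), -3.28 to -2.56 (Car13 to erythroid), 1.82 to 2.13 (Car2 to osteoclast), 2.22 to 2.73 (Car9 to hypoxia targets), -2.83 to -2.02 (Car12 to hypoxia targets), -1.56 to -1.30 (Car3 to adipocyte) and -3.15 to -2.28 (Car3 to skeletal muscle). Without femur 1 none passed (exact permutation, adjusted p = 0.0544 for the first 7 and 0.0952 for muscle), where 5 against 2 libraries cannot go below 0.0476. The 7 list shares that had passed likewise missed the threshold without any 1 of the femur libraries (exact permutation, adjusted p = 0.0612). Scaling by library size alone shifted the median gene by 0.107 in calvaria against femur and 0.158 in frontal bone, and no call on a carbonic anhydrase changed. Counts of 2 to 7 for Car12 in calvaria and 0 to 3 for Car4 limit what can be said of their levels.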
